A study of Rattus norvegicus with 18 samples.

Results

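The genes described here are those of the cell cycle and of DNA replication, 44 genes listed by name for their known roles. The list was written with earlier results of these data known, so its shares set against all genes are a description. Of these, 42 were measured by at least 1 probe set carrying a single gene symbol, out of 14217 genes so named on the array, and they had 58 probe sets in all. They were divided into 25 mitosis genes, 24 of them measured, and 18 replication genes, 17 of them measured, with Cdca7l kept apart from both lists. Rrm2, a ribonucleotide reductase subunit, was covered only by probe sets that name several genes, and Tpx2, a spindle assembly factor, had no annotated probe set, so neither has a value.

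Expression was measured in rats on 18 one-colour Affymetrix arrays, 9 of abdominal subcutaneous fat and 9 of hypothalamus. Each tissue had 3 arrays labelled RYGB-Success, 3 labelled RYGB-Fail and 3 labelled Pair-Fed. In Roux-en-Y gastric bypass (RYGB) a small gastric pouch is joined directly to the small bowel. RYGB-Success rats were losing weight after the operation, RYGB-Fail rats were gaining weight, and Pair-Fed rats received as much food as the treated animals. The labels give no strain, age or time after surgery, and they do not say whether a fat array and a hypothalamus array with the same number came from 1 animal. The submitters called the replicates biological, and RNA was amplified from total RNA before labelling.

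A cell that divides first copies its DNA and then separates the copies. Genes needed for copying (the Mcm helicase subunits, DNA polymerase and primase, the sliding clamp Pcna, and enzymes that make deoxynucleotides) are switched on before S phase, largely through E2F transcription factors. Genes needed for separation (cyclin B and its kinase Cdk1, the spindle kinesins, the checkpoint kinases, topoisomerase II) are switched on later, in G2 and mitosis, through complexes that bind CCAAT boxes and a short element called the cell cycle homology region. In adult adipose tissue mature adipocytes do not divide, and dividing cells are found among progenitors, vascular cells and immune cells. In the adult hypothalamus neurons do not divide, and division is found mainly among glial precursors, tanycytes and vascular or immune cells. In bulk tissue a lower signal can come from fewer dividing cells or from less RNA per cell, and these cannot be told apart.

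The promoters of the genes are shown first, because the lists differ in their promoter motifs. RefSeq promoters (assembly GRCr8, 250 bases before to 50 bases after the annotated start) were available for 38 of the 44 genes. Motifs of 3 kinds were searched on both strands. These were the CCAAT box (CCAAT), the cell cycle homology region (TTTGAA or TTTAAA) and the E2F site (TTTCCCGC, TTTCGCGC, TTTGCCGC or TTTGGCGC, where matches on opposite strands may overlap each other). A cell cycle homology region was present in 20 of 21 mitosis promoters (95.2%) and in 3 of 16 replication promoters (18.8%), against 27.9% of all 27457 promoters. An E2F site was present in 1 of 21 mitosis promoters (4.76%) and in 10 of 16 replication promoters (62.5%), against 2.25% of all promoters. CCAAT boxes were present in 71.4% of mitosis, 56.2% of replication and 37.7% of all promoters. A CCAAT box and a cell cycle homology region occurred together in 71.4% of mitosis promoters, in 6.25% of replication promoters and in 11.1% of all promoters. The promoters of 3 mitosis genes and 3 replication genes whose levels are described below are given 5′ to 3′ in the direction of the gene, with every motif match in capitals.
Cks2 at chr17:13727470-13727769 on the minus strand: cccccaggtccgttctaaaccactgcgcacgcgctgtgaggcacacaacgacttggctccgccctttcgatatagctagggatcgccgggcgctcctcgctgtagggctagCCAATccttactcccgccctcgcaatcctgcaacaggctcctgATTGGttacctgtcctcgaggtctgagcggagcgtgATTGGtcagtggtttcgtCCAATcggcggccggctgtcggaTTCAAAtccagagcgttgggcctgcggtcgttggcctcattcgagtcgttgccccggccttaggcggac
Cdk1 at chr20:19265043-19265342 on the plus strand: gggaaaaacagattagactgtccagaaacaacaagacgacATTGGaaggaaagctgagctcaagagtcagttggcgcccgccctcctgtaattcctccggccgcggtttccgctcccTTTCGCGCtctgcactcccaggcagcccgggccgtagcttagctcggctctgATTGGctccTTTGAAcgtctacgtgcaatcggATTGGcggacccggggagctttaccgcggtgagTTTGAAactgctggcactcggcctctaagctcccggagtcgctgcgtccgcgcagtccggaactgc
Top2a at chr10:84473044-84473343 on the minus strand: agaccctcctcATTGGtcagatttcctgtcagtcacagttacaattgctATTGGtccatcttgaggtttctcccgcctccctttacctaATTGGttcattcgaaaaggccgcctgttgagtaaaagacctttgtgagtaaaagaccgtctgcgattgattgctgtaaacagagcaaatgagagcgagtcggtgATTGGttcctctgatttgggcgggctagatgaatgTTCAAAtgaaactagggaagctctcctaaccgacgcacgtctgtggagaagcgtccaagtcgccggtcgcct
Mcm5 at chr19:13488563-13488862 on the plus strand: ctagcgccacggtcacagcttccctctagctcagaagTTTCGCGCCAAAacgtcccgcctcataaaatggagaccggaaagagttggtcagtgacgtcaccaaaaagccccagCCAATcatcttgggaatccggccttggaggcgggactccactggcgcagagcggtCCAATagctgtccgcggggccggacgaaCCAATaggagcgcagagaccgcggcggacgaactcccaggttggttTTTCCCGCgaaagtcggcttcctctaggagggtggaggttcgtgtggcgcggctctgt
Mcm6 at chr13:42404303-42404602 on the minus strand: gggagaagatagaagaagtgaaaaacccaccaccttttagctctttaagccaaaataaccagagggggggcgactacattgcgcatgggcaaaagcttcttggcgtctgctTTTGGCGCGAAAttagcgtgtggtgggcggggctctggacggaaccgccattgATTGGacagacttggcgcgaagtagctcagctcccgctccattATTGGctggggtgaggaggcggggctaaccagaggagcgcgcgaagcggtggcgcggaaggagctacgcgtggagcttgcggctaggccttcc
Tyms at chr9:120776034-120776333 on the minus strand: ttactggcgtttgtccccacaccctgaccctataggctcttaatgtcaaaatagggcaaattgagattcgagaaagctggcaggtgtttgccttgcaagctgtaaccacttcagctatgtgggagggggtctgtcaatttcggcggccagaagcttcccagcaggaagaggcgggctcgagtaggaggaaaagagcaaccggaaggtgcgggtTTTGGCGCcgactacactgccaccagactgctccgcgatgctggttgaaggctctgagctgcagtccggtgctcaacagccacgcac
Cks2 carries 4 CCAAT boxes upstream of a single cell cycle homology region at position -19 from the start, and Top2a has the same arrangement with its region at position -22. Cdk1 has CCAAT boxes, cell cycle homology regions and the only E2F match among the mitosis promoters. Mcm5 and Mcm6 carry CCAAT boxes and E2F matches with no cell cycle homology region, and Tyms has a single E2F match at position -37. A match is a string of letters in this window and says nothing about whether a factor binds there.

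**Figure D1:**
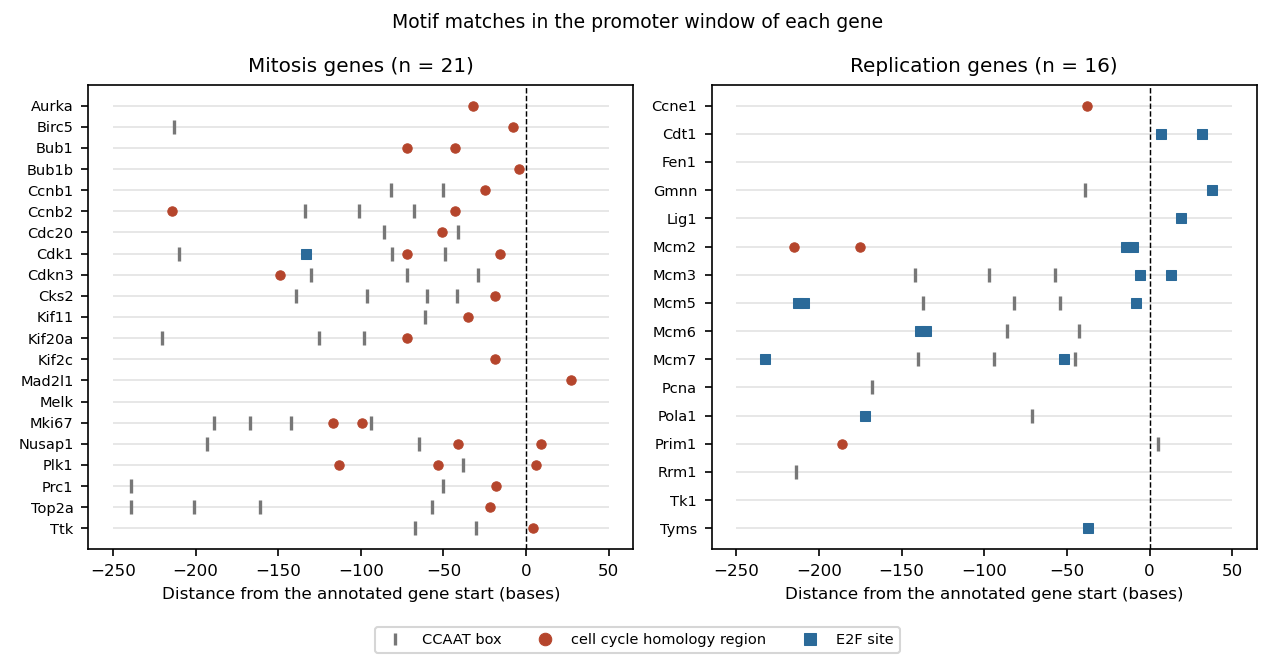
Motif matches in the promoter window of 21 mitosis genes (left) and 16 replication genes (right), with the distance from the annotated gene start in bases on the horizontal axis and 1 gene per line. Grey bars are CCAAT boxes, red circles cell cycle homology regions and blue squares E2F sites; the circles are found in 20 of the 21 mitosis promoters and the squares in 10 of the 16 replication promoters.

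Values are signals on a linear scale, with nearly the same 2% trimmed mean on every array (500.13 to 500.20), and a gene is represented by its brightest probe set in the tissue. Signals of different probe sets depend on the probes and are not compared with each other. Differences were tested with limma on log2 signal over the 18625 probe sets of a tissue with the highest mean signal, and p-values were adjusted over all of them. In fat 28 of the 42 measured genes were above that filter (13 mitosis genes, 14 replication genes and Cdca7l), and in the hypothalamus 25 were (10, 14 and Cdca7l). The tissue labels matched their markers: 8 adipocyte genes summed to 51086 to 134892 in fat and 177 to 939 in the hypothalamus, whereas 8 neuron genes summed to 1346 to 4371 in fat and 39773 to 55821 in the hypothalamus. The third RYGB-Fail fat array stood apart from the other fat arrays. Its median correlation with them was 0.730, against 0.794 to 0.848 for the others, and its median signal was 288, against 98.2 to 200.04. Its actin 3′ to 5′ ratio was 2.46, against 12.0 to 24.3. Results that rest on it are given with and without it.

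Within each tissue no cell cycle or replication gene passed the test at an adjusted p under 0.05 in any of the 3 comparisons. In fat, 0% of all tested probe sets passed in any of them (RYGB-Success against Pair-Fed, RYGB-Fail against Pair-Fed, RYGB-Success against RYGB-Fail) or in the F test over the 3 groups. In the hypothalamus 0.0107%, 0% and 0.00537% of all probe sets passed in the same order, and 0.0107% passed the F test. At an unadjusted p under 0.05, 4 of 32 member probe sets in fat (12.5%, against 4.67% of all) and 1 of 27 in the hypothalamus (3.7%, against 7.68% of all) differed in the F test. At an unadjusted p under 0.05 in limma, 1, 3 and 4 of the 32 member probe sets in fat differed in these comparisons (905, 501 and 1060 of all 18625), and 2, 1 and 1 of the 27 in the hypothalamus (2447, 445 and 1120 of all). The values below are therefore a description of 3 against 3 arrays, read against the same measure over all genes.

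In fat, the mean log2 signal of the 24 mitosis genes was 6.94, 6.81 and 7.73 on the RYGB-Success arrays, 5.99, 5.32 and 7.83 on the RYGB-Fail arrays and 7.01, 6.68 and 6.53 on the Pair-Fed arrays. The first and second RYGB-Fail arrays were the lowest of the 9 and the third RYGB-Fail array was the highest. The mean of the 17 replication genes was 7.85, 7.69 and 8.42 in RYGB-Success fat, 7.69, 6.98 and 7.88 in RYGB-Fail fat and 7.61, 7.52 and 7.68 in Pair-Fed fat. Replication genes spanned a narrower range, and the highest array was the third RYGB-Success one. These means include dim genes, where small differences in signal give large log2 changes. In fat 13 of the 24 mitosis genes were above the filter, against 14 of the 17 replication genes. The part of dim genes in the wider mitosis range was not tested. The third RYGB-Fail array held the highest signal of the 9 for 12 of 24 mitosis genes and 5 of 17 replication genes, against 28.5% of all named genes. The second RYGB-Fail array held the lowest for 12 of 24 mitosis genes and 6 of 17 replication genes, against 20.1% of all named genes. In the hypothalamus the mitosis mean was 5.37, 5.90 and 5.001 in RYGB-Success, 5.54, 4.69 and 5.64 in RYGB-Fail and 5.32, 5.56 and 5.48 in Pair-Fed rats, and the groups overlapped. The replication mean was 6.92, 7.20 and 7.31 in RYGB-Success, 6.85, 6.82 and 7.35 in RYGB-Fail and 6.96, 6.76 and 7.03 in Pair-Fed rats. These groups overlapped too. Neural progenitor and tanycyte markers (6 of 6) summed to 6266 to 7705 in RYGB-Success, 6320.2 to 8239 in RYGB-Fail and 6263 to 7403 in Pair-Fed hypothalamus.

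**Figure D2:**
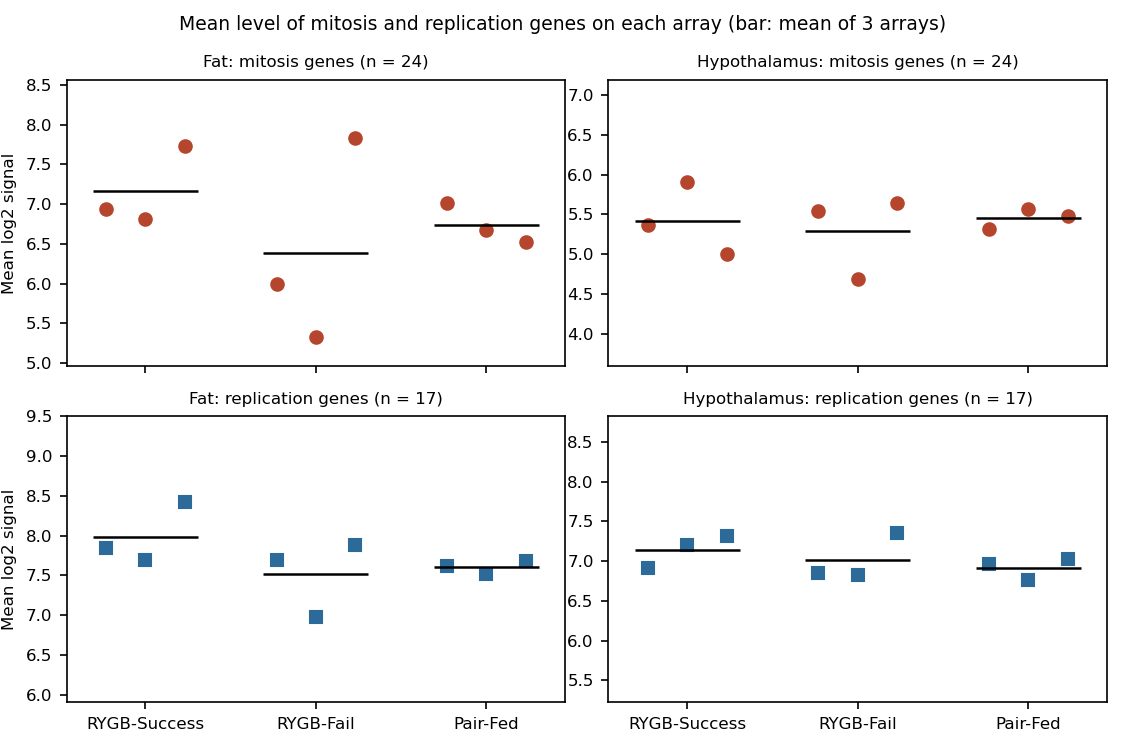
Mean log2 signal of the mitosis genes (top) and of the replication genes (bottom) on each array of fat (left) and hypothalamus (right), with 1 point per array and a bar at the mean of 3 arrays; every panel spans the same number of log2 units. Mitosis genes in RYGB-Fail fat span 5.32 to 7.83, whereas the other groups and the hypothalamus span less.

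In RYGB-Success fat most of the genes had higher signals than in Pair-Fed fat, by small amounts. Of the 42 genes 34 were higher (81.0%, against 56.8% of all named genes), with a median log2 change of 0.45 against 0.10 over all named genes. The median was 0.56 for mitosis genes, 17 of 24 of them higher, and 0.39 for replication genes, 16 of 17 of them higher. The groups did not overlap, with RYGB-Success higher, for 10 genes (23.8%, against 10.2% of all named genes), and with RYGB-Success lower for 1 gene, Aurkb (2.38%, against 7.17%). The 10 genes were Cdca7l, the mitosis genes Cks2, Cdk1, Cdkn3, Mki67 and Kif11, and the replication genes Tyms, Mcm5, Pcna and Pola1. Kif11, Pola1 and Aurkb were below the filter and were not tested. These medians were smaller without the third RYGB-Success array, at 0.23 for mitosis genes and 0.17 for replication genes. Centring each array on its own median took a shift of 0.37 on the log2 scale out of every gene in this comparison. The median was then 0.19 for mitosis and 0.02 for replication genes, and 2 genes did not overlap and were higher (4.76%, against 3.62% of all genes), and with quantile normalization 5 were (11.9%, against 6.44%).

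Among mitosis genes, Mki67, the antigen recognised by the Ki-67 proliferation stain, had signals of 1254, 1038 and 1645 in RYGB-Success fat, against 646, 1029 and 575 in Pair-Fed fat. The lowest RYGB-Success array lay just above the highest Pair-Fed array, and the log2 change was 0.83 ± 0.93 (SE, n = 3 each; limma adjusted p = 0.975). Cdk1, the kinase that drives entry into mitosis, had 143, 164 and 204 in RYGB-Success fat, against 72.3, 83.2 and 72.3 in Pair-Fed fat. These groups did not overlap, and the log2 change was 1.15 ± 0.87 (limma adjusted p = 0.975). All Pair-Fed arrays were below the filter's lowest mean signal of 88.9, and the gene's geometric mean of 89.3 in fat lay just above it. Cks2, a small subunit of the Cdk1 complex, had 499.8, 322 and 930.0 in RYGB-Success fat, against 261, 231 and 214 in Pair-Fed fat, with a change of 1.18 ± 0.71 (limma adjusted p = 0.975). Cdkn3, a phosphatase that acts on cyclin-dependent kinases, had 189, 183 and 271 in RYGB-Success fat, against 156, 119 and 143 in Pair-Fed fat, again without overlap. Top2a, the topoisomerase that untangles sister chromosomes, had 316, 751 and 1129 in RYGB-Success fat, against 717, 343 and 369.9 in Pair-Fed fat, and these groups overlapped. Ccnb2, Kif20a and Prc1 had log2 changes of -0.30, -0.04 and -0.20, and the remaining tested mitosis genes (Ccna2, Birc5, Ube2c, Nusap1 and Ttk) had changes of 0.12 to 0.81 with overlapping groups.

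Among replication genes, Tyms, which makes thymidylate, had 202, 323 and 294 in RYGB-Success fat, against 199, 183 and 176 in Pair-Fed fat. The groups touched without overlapping, and the log2 change was 0.53 ± 0.43 (limma adjusted p = 0.975). Mcm5, a subunit of the replicative helicase, had 136, 159 and 232 in RYGB-Success fat, against 118, 113 and 92.2 in Pair-Fed fat, a change of 0.68 ± 0.69 (limma adjusted p = 0.975). Pcna, the clamp that holds DNA polymerase on its template, had 1914, 2079 and 2361 in RYGB-Success fat, against 1768, 1666 and 1904 in Pair-Fed fat, a small shift of 0.25 ± 0.32. Mcm2, another helicase subunit, had 189.9, 31.1 and 263 in RYGB-Success fat, against 72.8, 100.4 and 83.3 in Pair-Fed fat, so that the RYGB-Success arrays lay on both sides of the Pair-Fed ones. The helicase subunits Mcm4, Mcm6 and Mcm7 had changes of 0.52, 0.00 and 0.37. The licensing factor Cdt1 and its inhibitor Gmnn (geminin) had changes of 0.07 and -0.02. The flap nuclease Fen1, the ligase Lig1, the primase subunit Prim1, thymidine kinase Tk1 and the ribonucleotide reductase subunit Rrm1 had changes of 0.02 to 0.55, each with overlapping groups.

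Cdca7l, known from human cells as a nuclear partner of MYC, had the largest change of the 28 genes tested in this comparison. Its signals were 169, 431 and 627 in RYGB-Success fat, 109.9, 141 and 311 in RYGB-Fail fat and 15.2, 60.4 and 61.8 in Pair-Fed fat. Every bypass array was above every Pair-Fed array. The log2 change was 3.22 ± 0.76 for RYGB-Success against Pair-Fed (SE, n = 3 each; unadjusted p = 0.00123, limma adjusted p = 0.489). For RYGB-Fail against Pair-Fed it was 2.14 ± 0.76 (unadjusted p = 0.0162, limma adjusted p = 1.0). Both comparisons share the Pair-Fed arrays, whose signals of this gene, the lowest at 15.2, were below the filter's lowest mean signal of 88.9, where small differences in signal give large log2 changes.

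**Figure D3:**
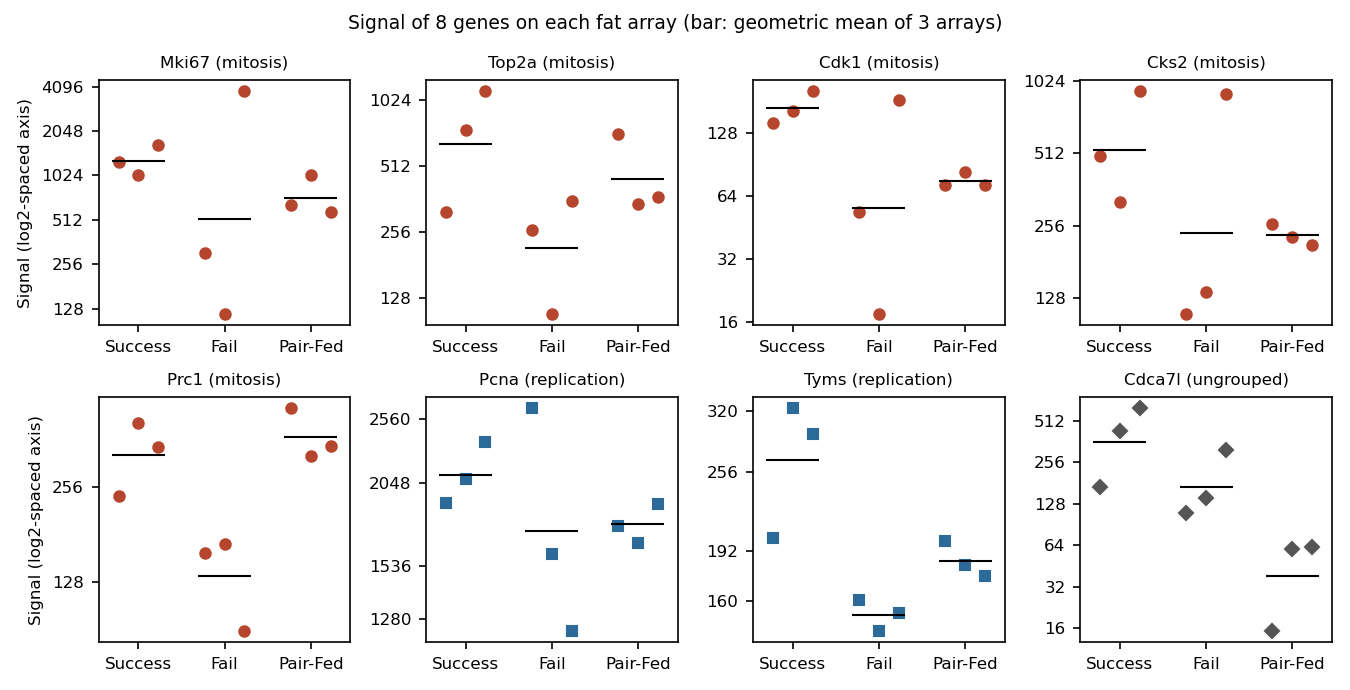
Signal (log2-spaced axis) of 8 genes on each fat array, with 1 point per array and a bar at the geometric mean of 3 arrays; circles are mitosis genes, squares replication genes and the diamond Cdca7l. Mki67, Cdk1 and Cks2 each have 1 RYGB-Fail point far above the other 2, Prc1 has all RYGB-Fail points below the rest, and Cdca7l has all Pair-Fed points below the rest.

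Markers of other cell types were high on some of the same arrays. The 15 measured genes of B and T lymphocytes, of 19 listed, summed to 3036, 3522 and 22898 in RYGB-Success fat, 2407, 2262 and 3294 in RYGB-Fail fat and 2487, 1703 and 2477 in Pair-Fed fat. The third RYGB-Success array, which held the highest signal of the 9 for 16 of 42 cell cycle and replication genes (against 15.7% of all named genes), was the high one. All 16 listed genes of skin and mammary epithelium were measured and summed to 1218, 70176 and 36610.2 in RYGB-Success fat, 734, 1564 and 2502 in RYGB-Fail fat and 975, 1028 and 2343 in Pair-Fed fat. RYGB-Success arrays 2 and 3 were high, led by the milk protein gene Lalba. Skeletal muscle genes, 13 of 14 measured, summed to 29999, 23200.1 and 15798 in RYGB-Success fat, 77798, 272525 and 28396 in RYGB-Fail fat and 12806, 14658 and 15415 in Pair-Fed fat. Myh1 carried most of the sum outside the first and second RYGB-Fail arrays. Without it the other 12 genes summed to 1492, 1538 and 3172 in RYGB-Success fat, 68721, 259235 and 4174 in RYGB-Fail fat and 862, 1573 and 1341 in Pair-Fed fat. The first and second RYGB-Fail arrays, where mitosis genes were lowest, were the highest for muscle with and without Myh1. Macrophage genes (12 of 13 measured) summed to 14543 to 21640.0 in RYGB-Success, 12549 to 42367 in RYGB-Fail and 23822 to 56374 in Pair-Fed fat. Endothelial genes (7 of 8) summed to 34325 to 52435, 18584 to 37802 and 25932 to 39651 in the same groups, preadipocyte and fibroblast genes (10 of 11) to 31940.0 to 84912, 52090.0 to 102981 and 109250.0 to 140965, and blood cell genes (5 of 8) to 15251 to 41668, 2963 to 7152 and 5231 to 8568. No marker was listed at 0 on any array, and the part of these cell types in the cell cycle values was not tested.

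In RYGB-Fail fat the genes had, by a small margin, lower signals than in Pair-Fed fat. The median log2 change was -0.25, against -0.06 over all named genes, and 26 of 42 genes were lower (61.9%, against 54.8%). It was -0.28 for mitosis genes, 16 of 24 of them lower, and -0.10 for replication genes, 10 of 17 of them lower. The groups did not overlap for 5 genes that were lower in RYGB-Fail fat (Prc1, Tyms, Mcm3, Bub1 and Aurkb; 11.9%, against 4.54% of all named genes). They did not overlap for 1 gene that was higher (Cdca7l; 2.38%, against 3.12%). Mcm3, Bub1 and Aurkb were below the filter in fat and were not tested. Prc1, which bundles microtubules at the spindle midzone, had 158, 169 and 89.5 in RYGB-Fail fat, against 454, 321 and 345 in Pair-Fed fat. All 3 RYGB-Fail arrays were lower, and the log2 change was -1.47 ± 0.43 (SE, n = 3 each; unadjusted p = 0.00563, limma adjusted p = 1.0). Tyms had 161, 144 and 153 in RYGB-Fail fat, against 199, 183 and 176 in Pair-Fed fat, a smaller change of -0.29 ± 0.43 (limma adjusted p = 1.0).

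The values of this comparison rested on single RYGB-Fail arrays. Mki67 had 306, 118 and 3819 in RYGB-Fail fat, against 646, 1029 and 575 in Pair-Fed fat. Cdk1 had 54.0, 17.5 and 185 in RYGB-Fail fat, against 72.3, 83.2 and 72.3 in Pair-Fed fat, and Cks2 had 109.9, 136 and 905 in RYGB-Fail fat, against 261, 231 and 214 in Pair-Fed fat. For these 3 genes the first and second RYGB-Fail arrays were below all Pair-Fed arrays and the third was above all of them. Top2a had 261, 108 and 357 in RYGB-Fail fat, against 717, 343 and 369.9 in Pair-Fed fat, with the third array inside the Pair-Fed range. Pcna had 2652, 1603 and 1228 in RYGB-Fail fat, against 1768, 1666 and 1904 in Pair-Fed fat, and there the third array was the lowest. With all 3 arrays the log2 changes were -0.49 for Mki67, -0.44 for Cdk1, -1.06 for Top2a, -0.03 for Pcna and 0.11 for Mcm2, and Mki67, Cdk1, Pcna and Mcm2, like Tyms, each changed sign in at least 1 of the alternative settings. Without the third RYGB-Fail array, 19 genes did not overlap and were lower (45.2%, against 17% of all named genes), with medians of -1.08 for mitosis genes and -0.26 for replication genes. No member passed the test even then, when 0.226% of all probe sets did, and Mki67 had a change of -1.93 ± 0.46 (limma adjusted p = 0.151). The median signals of the first and second RYGB-Fail arrays were 102 and 98.2, against 126 to 147 in Pair-Fed fat. With each array centred on its own median as well, an alternative chosen after the data were seen, 12 genes did not overlap and were lower (28.6%, against 6.81% of all named genes) and 6 were higher (14.3%, against 23.5%). The medians were then -0.65 for mitosis and 0.17 for replication genes, and no member passed, when 0.279% of all probe sets did. Without the second RYGB-Fail array the medians were 0.17 and 0.27.

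Between the bypass groups the genes were mostly higher in RYGB-Success fat, with no gene passing the test. The median log2 change of RYGB-Success against RYGB-Fail was 1.05 for mitosis genes and 0.34 for replication genes, against 0.13 over all named genes. Of the mitosis genes 20 of 24 were higher (83.3%) and of the replication genes 12 of 17 (70.6%), against 59.3% of all named genes. With signals under the filter's lowest mean signal raised to it, the mitosis median was 0.18. The groups did not overlap, with RYGB-Success higher, for 5 genes (Prc1, Cdkn3, Prim1, Tyms and Mcm3; 11.9%, against 5.94% of all named genes). None was lower without overlap (0%, against 2.67%). Mcm3 was below the filter and was not tested. At an unadjusted p under 0.05 the genes were Top2a, Cdkn3 and Prc1, all mitosis genes. Top2a had 316, 751 and 1129 in RYGB-Success fat, against 261, 108 and 357 in RYGB-Fail fat, a change of 1.58 ± 0.58 (limma adjusted p = 0.827). Cdkn3 had 189, 183 and 271 in RYGB-Success fat, against 55.4, 38.0 and 167 in RYGB-Fail fat, a change of 1.58 ± 0.65 (limma adjusted p = 0.839). Prc1 had 240.1, 407 and 343 in RYGB-Success fat, against 158, 169 and 89.5 in RYGB-Fail fat, a change of 1.27 ± 0.43 (limma adjusted p = 0.827). For the replication gene Prim1, which starts each new DNA strand, the signals were 388, 419.6 and 404 in RYGB-Success fat, against 218, 211 and 253 in RYGB-Fail fat. Its RYGB-Success arrays were close together and all above the RYGB-Fail ones, with a change of 0.83 ± 0.39 (limma adjusted p = 0.88). Tyms differed by 0.81 ± 0.43, Mki67 by 1.32 ± 0.93, Cdk1 by 1.59 ± 0.87, Cdca7l by 1.08 ± 0.76, Pcna by 0.28 ± 0.32 and Mcm2 by 0.34 ± 0.85, each with a limma adjusted p of 0.895 or more. With each array centred on its own median the medians were 0.75 for mitosis and 0.04 for replication genes, and 2 genes did not overlap and were higher (4.76%, against 2.44% of all named genes). Without the second RYGB-Fail array the mitosis median was 0.23, and without the third RYGB-Success array it was 0.60.

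Without the third RYGB-Fail array 4 of the 32 member probe sets, all of mitosis genes, passed the test between the bypass groups, when 5.99% of all probe sets did. Mki67 was higher in RYGB-Success fat by 2.76 ± 0.46 on the log2 scale (limma adjusted p = 0.0149) and Cks2 by 2.12 ± 0.46 (limma adjusted p = 0.0272). Cdkn3 was higher by 2.20 ± 0.48 (limma adjusted p = 0.0274) and Cdk1 by 2.45 ± 0.64 (limma adjusted p = 0.0475). No replication gene passed in that fit. Cdk1 lay just above the filter, with a geometric mean signal of 89.3 against the lowest mean of 88.9, and its first and second RYGB-Fail arrays and all Pair-Fed arrays were below that level. The first and second RYGB-Fail arrays of Cdkn3 (55.4 and 38.0) were below it too. The groups were then 3 and 2 arrays, and 21 of 42 genes did not overlap and were higher (50%, against 23.1% of all named genes). The remaining RYGB-Fail arrays had median signals of 102 and 98.2, against 163 to 200.04 in RYGB-Success fat, and they were the fat arrays highest for skeletal muscle genes. With each array centred on its own median as well, an alternative chosen after the data were seen, 1 of the 32 member probe sets passed, when 10.4% of all probe sets did. This was Mki67, with a change of 1.96 ± 0.44 (limma adjusted p = 0.0315). Cks2, Cdkn3 and Cdk1 then had changes of 1.31 ± 0.43, 1.39 ± 0.47 and 1.65 ± 0.62 (limma adjusted p = 0.0637, 0.0677 and 0.0917). The medians were 0.76 for mitosis and -0.18 for replication genes. In that setting 8 genes did not overlap and were higher (19%, against 7.51% of all named genes) and 4 were lower (9.52%, against 37.7%). The part of muscle in these values was not tested.

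Below the filter in fat were 14 genes, which were not tested. They were the replication genes Ccne1 (cyclin E), Mcm3 and Pola1 (the catalytic subunit of DNA polymerase alpha), and 11 mitosis genes. Those 11 were the cyclin Ccnb1, the anaphase activator Cdc20, the checkpoint genes Bub1, Bub1b and Mad2l1, the kinases Aurka, Aurkb, Plk1 and Melk, and the kinesins Kif11 and Kif2c. Ccnb1 had 13.1, 98.6 and 232 in RYGB-Success fat, 35.5, 43.6 and 291 in RYGB-Fail fat and 55.8, 16.6 and 66.8 in Pair-Fed fat, with wide spread inside each group. Kif11, which pushes spindle poles apart, had 207, 91.5 and 187 in RYGB-Success fat, 53.5, 19.3 and 355 in RYGB-Fail fat and 80.6, 67.9 and 43.4 in Pair-Fed fat. On this brightest probe set the RYGB-Success arrays were above all Pair-Fed ones and the highest value was again on the third RYGB-Fail array. The other Kif11 probe set had 61.9, 123 and 134 in RYGB-Success fat and 17.2, 5.31 and 11.9 in RYGB-Fail fat. In Pair-Fed fat it had 80.9, 49.2 and 44.2. There RYGB-Success overlapped Pair-Fed, and the third RYGB-Fail array was below all Pair-Fed arrays. Of the 42 genes 11 had several probe sets, and these disagreed in sign for 6 of them in RYGB-Success against Pair-Fed fat, for 6 in RYGB-Fail against Pair-Fed fat and for 4 in RYGB-Success against RYGB-Fail fat. For the mitosis genes Top2a and Nusap1 and the replication gene Lig1, all probe sets of the gene had the same sign in each of the 3 fat comparisons.

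**Figure D4:**
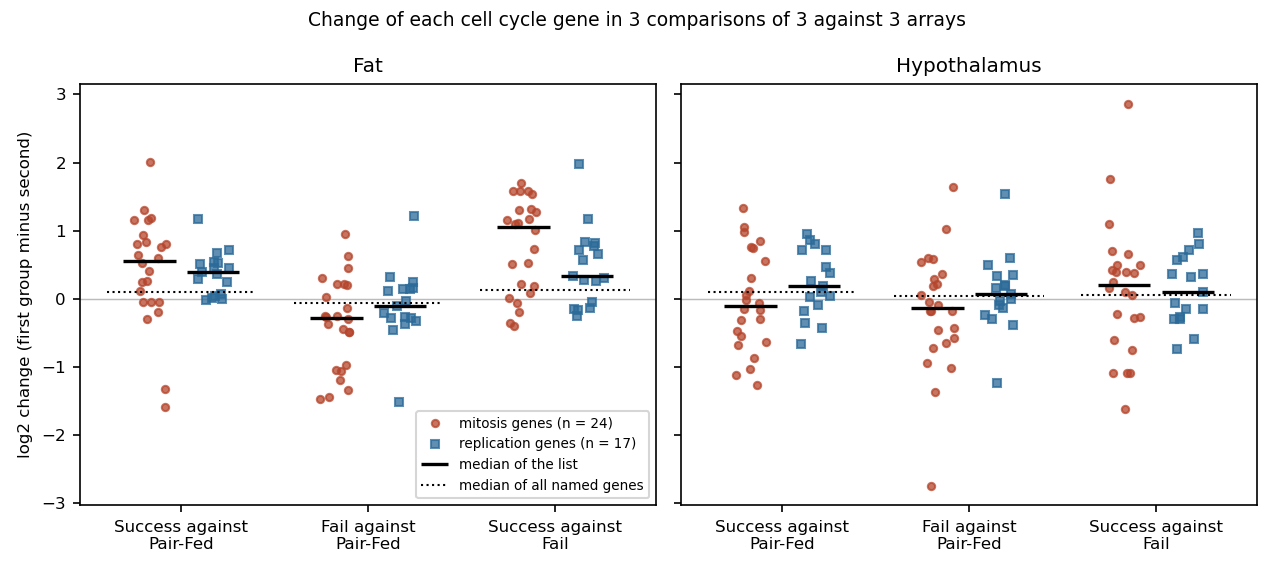
Log2 change of each of 24 mitosis genes (circles) and 17 replication genes (squares) in 3 comparisons of fat (left) and hypothalamus (right); solid bars are the medians of the lists and dotted lines the medians of all 14217 named genes. In fat the mitosis median is 0.56, -0.28 and 1.05 from left to right, and in the hypothalamus both medians lie between -0.13 and 0.20 in every comparison.

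Other genes of the same pathways were read from 4 further lists, and none of them held a gene that passed the test within a tissue. In RYGB-Success against Pair-Fed fat, 23 of 35 other replication genes (65.7%) and 25 of 32 other mitosis genes (78.1%) were higher. The share over all named genes was 56.8%. The medians of these lists were 0.41 and 0.42, against 0.10 over all named genes. These values were not centred, and centring took a shift of 0.37 out of every gene in this comparison. In RYGB-Fail against Pair-Fed fat the medians were -0.13 and 0.02, against -0.06 over all named genes. In RYGB-Success against RYGB-Fail fat they were 0.32 and 0.51, against 0.13. The 25 measured regulators of the G1 to S transition (D cyclins, E2F and retinoblastoma family genes) had medians of -0.05, -0.10 and 0.09 in these comparisons. The 16 measured inhibitors and arrest genes had 0.07, -0.14 and 0.30. Btg1, an antiproliferative gene, had 18969.8, 22117 and 28435 in RYGB-Success fat, against 12475, 8523 and 14018 in RYGB-Fail fat and 14151, 15109 and 15812 in Pair-Fed fat. All RYGB-Success arrays were above the others, and the change against RYGB-Fail was 1.00 ± 0.26 (limma adjusted p = 0.711). Tfdp2, the DNA-binding partner of E2F factors, had 345, 482 and 324 in RYGB-Success fat, against 686, 1252 and 822 in RYGB-Fail fat and 745, 642 and 713 in Pair-Fed fat. All RYGB-Success arrays were below the others, and the change against RYGB-Fail was -1.24 ± 0.35 (limma adjusted p = 0.762).

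In the hypothalamus the lists stayed close to the values of all genes. For RYGB-Success against Pair-Fed the median log2 change was -0.11 for mitosis genes and 0.18 for replication genes, against 0.10 over all named genes. The groups did not overlap for 5 genes that were higher (Mcm7, Cdkn3, Ccnb2, Mcm2 and Ccna2; 11.9%, against 11.5% of all named genes) and for 1 that was lower (Kif20a; 2.38%, against 6.18%). Ccna2 was below the filter in the hypothalamus and was not tested. Mcm7, a helicase subunit, had 239.9, 224 and 249 in RYGB-Success hypothalamus, against 89.3, 124 and 198 in Pair-Fed hypothalamus. The RYGB-Success arrays were close together and above all Pair-Fed ones, with a change of 0.87 ± 0.34 (unadjusted p = 0.0236, limma adjusted p = 0.321). Cdkn3 had 123, 106 and 146 in RYGB-Success hypothalamus, against 55.7, 69.0 and 83.8 in Pair-Fed hypothalamus, a change of 0.85 ± 0.40 (limma adjusted p = 0.381). Kif20a, a kinesin of cytokinesis, had 87.3, 51.5 and 88.8 in RYGB-Success hypothalamus, 132, 136 and 216 in RYGB-Fail hypothalamus and 136, 165 and 109 in Pair-Fed hypothalamus. It was lowest in RYGB-Success rats, with changes of -0.87 ± 0.37 against Pair-Fed (limma adjusted p = 0.357) and -1.09 ± 0.37 against RYGB-Fail (limma adjusted p = 0.784). Blood cell genes (5 of 8 measured) summed to 14073, 13634 and 26443 in RYGB-Success hypothalamus, 3517, 6819 and 8179 in RYGB-Fail hypothalamus and 12534, 3144 and 5270 in Pair-Fed hypothalamus, so that all RYGB-Success arrays were above the others. The actin 3′ to 5′ ratio was 179 on the second Pair-Fed hypothalamus array, against 6.65 to 48.5 on the other hypothalamus arrays. The GAPDH ratio of that array was 4.78, inside the range of the others (1.58 to 6.22). The part of blood cells and of RNA quality in the hypothalamic changes was not tested.

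For RYGB-Fail against Pair-Fed hypothalamus the medians were -0.13 for mitosis genes and 0.07 for replication genes. The groups did not overlap for 1 gene that was higher (Cdt1; 2.38%, against 6.12% of all named genes) and 1 that was lower (Mki67; 2.38%, against 3.46%). Cdt1 was below the filter in the hypothalamus and was not tested. Mki67 had 119, 41.9 and 81.1 in RYGB-Fail hypothalamus, against 194, 289 and 123 in Pair-Fed hypothalamus. The change was -1.37 ± 0.58 (unadjusted p = 0.0338, limma adjusted p = 1.0). In RYGB-Success hypothalamus its signals were 37.3, 199.96 and 89.9, which overlapped both other groups. For RYGB-Success against RYGB-Fail hypothalamus the medians were 0.20 and 0.10. Cdkn3 was the only gene higher without overlap (2.38%, against 6.39% of all named genes) and Kif20a the only gene lower (2.38%, against 4.28%). Pcna had 1098, 1305 and 1523 in RYGB-Success hypothalamus, 1388, 1303 and 1376 in RYGB-Fail hypothalamus and 1375, 1976 and 1684 in Pair-Fed hypothalamus, which overlapped. Top2a had 113, 180.4 and 129.7 in RYGB-Success, 249, 46.4 and 81.4 in RYGB-Fail and 86.2, 145 and 109.8 in Pair-Fed hypothalamus. Neither gene separated all 3 groups. The other Top2a probe set, below the filter, went the other way in RYGB-Success against Pair-Fed hypothalamus, with -0.76 against 0.31 on the brightest. Among the 11 genes with several probe sets, these disagreed in sign in the hypothalamus for 8 genes in RYGB-Success against Pair-Fed. They disagreed for 6 in RYGB-Fail against Pair-Fed and for 10 in RYGB-Success against RYGB-Fail. In RYGB-Success against Pair-Fed hypothalamus the other replication genes had a median of 0.14, the other mitosis genes 0.02, the G1 regulators 0.20 and the inhibitors 0.13. Of the 16 inhibitors and arrest genes, 4 did not overlap and were higher (25.0%, against 11.5% of all named genes) and 2 did not overlap and were lower (12.5%, against 6.18%). Cdkn1a, an inhibitor of cyclin-dependent kinases, had 991, 989.9 and 826 in RYGB-Success, 226, 838 and 679 in RYGB-Fail and 226, 534 and 259 in Pair-Fed hypothalamus. Its RYGB-Success arrays were above all Pair-Fed ones, with a change of 1.57 ± 0.43 (unadjusted p = 0.00278, limma adjusted p = 0.221). Cdca7l had 98.4, 138 and 13.8 in RYGB-Success hypothalamus, 218, 77.0 and 144 in RYGB-Fail hypothalamus and 90.2, 101 and 104 in Pair-Fed hypothalamus, and the third RYGB-Success array was the lowest. Mcm2 had 93.0, 62.1 and 75.7 in RYGB-Success hypothalamus, against 34.9, 31.3 and 54.9 in Pair-Fed hypothalamus, a change of 0.95 ± 0.52 (limma adjusted p = 0.447), and Ccnb1 had 177, 96.0 and 119, against 114, 143 and 170.5, with overlap.

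Below the filter in the hypothalamus were 17 genes, namely Cdk1, Ccna2, Nusap1, Ttk, Mcm3, Mcm5 and Cdt1, and the mitosis genes below the filter in fat except Ccnb1. Cdk1 had signals of 30.2, 4.93 and 13.5 in RYGB-Success, 12.6, 3.24 and 40.3 in RYGB-Fail and 4.89, 43.9 and 34.6 in Pair-Fed hypothalamus, none of which reached the filter's lowest mean signal of 52.7. Whether a bypass effect differed between fat and hypothalamus was tested directly with an interaction term over 15531 probe sets. No member passed for RYGB-Success or for RYGB-Fail, and 0% of all probe sets passed in either test. At an unadjusted p under 0.05, 1 of the 22 genes tested differed for each (4.55%, against 9.19% of all named genes for RYGB-Success and 3.31% for RYGB-Fail). The largest difference of effects among the 22 genes tested was that of Cdca7l for RYGB-Success against Pair-Fed, 3.996 on the log2 scale (limma adjusted p = 0.345).

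Between the tissues, over 9 arrays each, several mitosis genes were higher in fat, and replication genes passed in both directions. A gene that is above the filter in 1 tissue and below it in the other enters such a comparison through the tissue where it is high, so the counts are given over the 22 genes above the filter in both tissues, a restriction chosen after the data were seen. Of these 12 were higher in fat (54.5%, against 35% of all named genes) and 2 were lower (9.09%, against 26.2%). Of 9 mitosis genes 5 were higher and 0 lower, and of 12 replication genes 7 were higher and 2 lower. Centring each array on its own median took a shift of 0.54 on the log2 scale out of the tissue difference. Of the 22 genes 7 were then higher (31.8%, against 16.8% of all named genes) and 3 lower (13.6%, against 38.5%). Those 7 were 4 mitosis genes (Mki67, Cks2, Top2a and Ccnb2) and 3 replication genes (Tk1, Tyms and Mcm6). The 3 lower ones were the replication genes Prim1, Fen1 and Gmnn. Before centring, the brightest Gmnn probe set had a mean log2 signal of 7.45 in fat and 7.62 in the hypothalamus. Its other probe set, also above both filters, went the other way, with 7.14 in fat and 6.49 in the hypothalamus. Mki67 ranged from 118 to 3819 with a median of 1029 in fat and from 37.3 to 289 with a median of 119 in the hypothalamus. The log2 difference was 2.87 ± 0.50 (SE, n = 9 each; limma adjusted p = 6.06e-05), and 1 RYGB-Fail fat array lay inside the hypothalamic range. Tk1, which salvages thymidine for DNA synthesis, ranged from 330.3 to 1091 with a median of 418 in fat and from 53.2 to 133 with a median of 84.0 in the hypothalamus. All fat arrays were above all hypothalamus arrays, with a difference of 2.53 ± 0.26 (limma adjusted p = 1.19e-07). These Tk1 values are of its brightest probe set, and its other probe sets were below the filter in both tissues. Their geometric mean signals were 69.6 and 38.3 in fat, against 52.3 and 42.4 in the hypothalamus, and the arrays of the tissues overlapped. Tyms and Mcm6 also separated the tissues on all 18 arrays, with differences of 1.22 ± 0.25 and 1.53 ± 0.33 (limma adjusted p = 3.10e-04 and 5.70e-04).

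Other mitosis genes that were higher in fat were Cks2 by 2.08 ± 0.38, Top2a by 1.79 ± 0.35, Ccnb2 by 1.31 ± 0.39 and Kif20a by 0.98 ± 0.27 on the log2 scale (limma adjusted p = 1.16e-04, 1.84e-04, 0.00654 and 0.00402). Prc1, Birc5 (survivin), Cdkn3 and Ube2c did not pass, with differences of -0.04 to 0.90. The other replication genes higher in fat were Lig1, Mcm4, Mcm7 and Pcna, with differences of 0.39 to 0.96. Prim1 was lower in fat, with a log2 difference of -0.70 ± 0.18 (limma adjusted p = 0.00245). Fen1 had a difference of -0.64 ± 0.28, with a limma adjusted p of 0.0463 over the probe sets above the filter in both tissues and of 0.0502 over those above it in at least 1. Rrm1, Mcm2 and Gmnn did not pass (-0.16 to 0.79), nor did Cdca7l, which carried the largest change within fat (0.54 ± 0.46, limma adjusted p = 0.311). The further lists were again read over genes above both filters, where 35% of all named genes were higher in fat and 26.2% lower. Other mitosis genes had 5 of 13 higher (38.5%) and 0 lower, and other replication genes 8 of 24 higher (33.3%) and 3 lower (12.5%). The G1 regulators had 8 of 19 higher (42.1%) and 0 lower, and the inhibitors 7 of 13 higher (53.8%) and 1 lower (7.69%). With each array centred on its own median, 16.8% of all named genes were higher and 38.5% lower. Other mitosis genes then had 2 of 13 higher and 1 lower, and other replication genes 1 of 24 higher and 4 lower. The G1 regulators had 4 of 19 higher and 0 lower, and the inhibitors 4 of 13 higher and 2 lower. The tissues differ in cell types throughout, and the part of any cell type in these differences was not tested.

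The other 9 genes were above the filter in 1 tissue only, and their differences are a description. Cdk1, Nusap1 (a spindle-associated protein), Ccna2 (cyclin A), the checkpoint kinase Ttk, Mcm5 and Cdt1 were above it in fat, and Ccne1, Pola1 and Ccnb1 in the hypothalamus. Cdk1 ranged from 17.5 to 204 with a median of 83.2 in fat and from 3.24 to 43.9 with a median of 13.5 in the hypothalamus. Ccne1, which starts S phase with Cdk2, ranged from 3.01 to 145 with a median of 52.2 in fat and from 76.4 to 222 with a median of 155 in the hypothalamus, and the arrays overlapped. With these genes counted, 18 of 31 were higher in fat (58.1%, against 36.2% of all named genes above either filter) and 2 were lower (6.45%, against 28.5%), counts that the filter partly fixes.

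**Figure D5:**
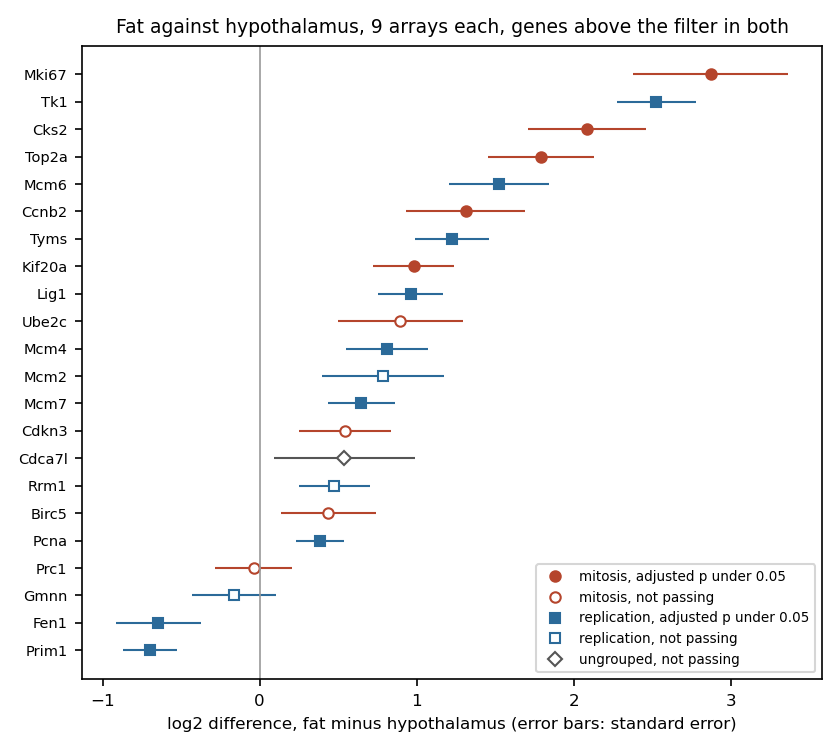
Log2 difference of fat minus hypothalamus for the 22 genes above the filter in both tissues, ordered by size, with standard errors over 9 arrays per tissue; filled symbols passed an adjusted p under 0.05 over the probe sets above both filters. Mki67 is at the top with 2.87 and Prim1 at the bottom with -0.70, and all filled circles (mitosis genes) lie right of 0.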

How the data were processed

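RNA was amplified with the Nugen WT Ovation kit and hybridised to one-colour Affymetrix arrays, per the labels. Each probe set has 1 deposited signal intensity an array, on a linear scale. The submitters' processing notes name MAS5 and GCOS. The 2% trimmed mean of an array was 500.13 to 500.20, so the deposited arrays carry a common scale. Neither detection calls nor scanner files were used here, so it is unknown which dim signals were above background, and only 3 arrays per group limit the precision. Of 31099 probe sets, 57 were array controls and left out, 20826 had 1 gene symbol in the platform annotation, 436 several and 9780 none.

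log2 signal was compared with limma 3.58.1 (lmFit, eBayes with trend) in R 4.3.3 over all 9 arrays of a tissue, on the 60% of probe sets brightest by mean log2 signal, with Benjamini-Hochberg adjustment over all 18625 and a threshold of 0.05. Tissue differences and interactions used all 18 arrays. The script was tested on simulated data. A gene stands by its brightest probe set of the tissue. Genes are named where they passed, where groups did not overlap (up to 8 with the lowest p), or as fixed anchors (Mki67, Top2a, Cdk1, Ccnb1, Pcna, Mcm2 and Cdca7l), and others to account for the lists. The genes and lists were chosen with earlier results of these data known. An exact permutation test of 3 against 3 arrays cannot go below 0.1. Sequences are RefSeq promoters of GRCr8. Alternatives covered a pseudocount (74.4 in fat, 67.6 in the hypothalamus, 71.0 over 18 arrays), filters, normalization, weights, the variance trend, a replicate block, probe sets, a floor, leaving out each array and, chosen after the data were seen, centring without the third RYGB-Fail fat array and a tissue comparison above both filters. Figures were drawn with matplotlib 3.10.9.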

Additional observations from a re-analysis of the deposited data

How the results depend on the processing

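Of 431 alternative values of the counts of passing genes and list medians, 410 kept within the limits set by the spread between replicates or 1.5 times the count, as did 99 of 150 counts of genes whose groups did not overlap. Of 1407 values of single genes, 1348 kept their direction and side of the threshold. No cell cycle or replication probe set passed in any within-tissue comparison under a pseudocount, other filters, other normalizations, array weights or no variance trend. Dim signals without detection calls limit what can be said of the 14 genes below the filter in fat and the 17 in the hypothalamus.

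With each array centred on its own median, the median change of replication genes was 0.021 in RYGB-Success against Pair-Fed fat and -0.051 in the hypothalamus, and between the tissues 4 replication genes were higher in fat, 4 were lower and 1 mitosis gene was lower. Quantile normalization over all 18 arrays also gave 1 mitosis gene lower in fat. With signals under the lowest mean of the filter raised to it, the mitosis median between RYGB-Success and RYGB-Fail fat was 0.18. Leaving out 1 array at a time, the replication median ranged from -0.26 to 0.27 in RYGB-Fail against Pair-Fed fat and from -0.061 to 0.34 in RYGB-Success against RYGB-Fail hypothalamus. In RYGB-Success against RYGB-Fail fat the mitosis median ranged from 0.23 to 1.57 and the number of passing genes from 0 to 4. Between the tissues, 0 to 1 mitosis genes (Ccnb1) were lower in fat. The other Ccnb1 probe set, below the filter in both tissues, went the other way, with geometric mean signals of 39.6 in fat and 6.64 in the hypothalamus. In alternatives chosen after the data were seen, centring without the third RYGB-Fail array gave a replication median of 0.021 in RYGB-Success against Pair-Fed fat and -0.18 in RYGB-Success against RYGB-Fail fat, where 1 cell cycle probe set passed. Over probe sets above the filter in both tissues, 15 member probe sets passed between the tissues and 5 mitosis genes were higher in fat. With centring as well, 10 passed, and 4 mitosis and 3 replication genes were higher. The causes were not tested, apart from the shift that centring removes and the fewer genes tested above both filters.

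Signs of single genes turned as follows on the log2 scale. Under median centring Pcna was -0.12 in RYGB-Success against Pair-Fed fat, -0.017 in RYGB-Success against RYGB-Fail fat and -0.16 between the tissues, where Cdca7l was -0.0035, also over genes above both filters. Under centring without the third RYGB-Fail array Tyms was 0.14 and Pcna 0.65 in RYGB-Fail against Pair-Fed fat, Pcna was -0.12 in RYGB-Success against Pair-Fed fat, and Pcna was -0.77 and Mcm2 -0.18 in RYGB-Success against RYGB-Fail fat. Under array weights Pcna was 0.33 and Mcm2 -0.00075 in RYGB-Fail against Pair-Fed fat, Pcna was -0.13 in RYGB-Success against RYGB-Fail fat, Ccnb1 was 0.086 in RYGB-Success against Pair-Fed hypothalamus and Mki67 was -0.39 in RYGB-Success against RYGB-Fail hypothalamus. Leaving out 1 array at a time, ranges crossed 0 for these genes. In fat they were -0.14 to 1.40 for Mcm2 in RYGB-Success against Pair-Fed, and -1.93 to 0.58 for Mki67, -1.30 to 0.40 for Cdk1, -0.34 to 0.21 for Pcna and -0.18 to 0.37 for Mcm2 in RYGB-Fail against Pair-Fed. In RYGB-Success against RYGB-Fail fat the range was -0.26 to 1.29 for Mcm2. In the hypothalamus they were -0.40 to 0.046 for Ccnb1 and -1.42 to 0.25 for Cdca7l in RYGB-Success against Pair-Fed, and -0.85 to 0.36 for Top2a in RYGB-Fail against Pair-Fed. In RYGB-Success against RYGB-Fail hypothalamus they were -0.35 to 0.86 for Mki67, -0.18 to 0.057 for Pcna and -0.044 to 1.17 for Top2a.

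Within a tissue, deviations of same-numbered arrays of different groups from their group means correlated between -0.16 and 0.29. These correlations cannot show whether same-numbered fat and hypothalamus arrays came from 1 animal, because they compare arrays within a tissue. With the replicate number as a block, 0 cell cycle or replication probe sets passed in each of the 6 comparisons within a tissue. With treatment and number as a random block across tissues, 24 passed between fat and hypothalamus, against 23 without it, and 0 passed in the interactions.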
